A study of Mus musculus with 16 samples.

Results

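The haem synthesis enzymes are described here as 9 genes taken by symbol, in pathway order, from the 55291 gene symbols of the deposited tables: Alas1, Alas2, Alad, Uros, Urod, Cpox, Ppox, Fech and the mitochondrial carrier Slc25a38. All 9 were found, and all 9 passed the filter on low counts that left 18744 genes for testing. Spleen RNA came from male C57BL/6 mice, either wild type or labelled PKR KO (PKR, encoded by Eif2ak2, is a kinase activated by double-stranded RNA). The mice received 62.5 mg of 5% cream with imiquimod, which activates Toll-like receptors and provokes psoriasis-like skin inflammation, each day on shaved back skin and were examined on day 0 (no cream), 1, 2 or 5. Each of the 8 groups of genotype and day had 2 libraries, and each library pooled the spleens of 2 mice. All spleens were pressed through a 70 µm mesh, and red blood cells were lysed before RNA was taken, in every group alike. No sample here is labelled as given cream without imiquimod. No source used here gives the knockout construct or the ages of the mice.

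Haem is built from glycine and succinyl-CoA by a chain of enzymes that starts and ends in the mitochondrion. The first step, 5-aminolevulinate synthase, is encoded by a pair of genes: Alas1 is used in all cells and is repressed by haem, while Alas2, on the X chromosome, is the form of red cell precursors and is tuned to iron. Mouse spleen can make red cells, above all under stress, and its red pulp macrophages also take up old red cells and break down their haem.

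The libraries held between 35026754 and 67333830 fragments. Levels are given as FPKM, the fragment count scaled by transcript length and library total, which can be compared between genes; changes over time are log2 differences from edgeR's quasi-likelihood test on the fragment counts with their standard errors (SE) and Benjamini-Hochberg adjusted p over all 18744 genes, and a gene is said to have risen or fallen where that adjusted p was under 0.05. The scaling factors of edgeR were 1.20 in both wild-type day 1 libraries and between 0.933 and 1.07 in the other 14, so a ratio of FPKM overstates an increase in wild type on day 1. Eif2ak2 itself was at 5.88 and 5.78 FPKM in wild type and 2.74 and 3.35 in the knockout before treatment. On day 1 the values were 28.1 and 26.6 against 10.1 and 9.18. On day 5 it was at 6.63 and 7.06 in wild type against 3.49 and 4.12 in the knockout. On day 2 the library labelled knockout replicate 1 had 10.98 FPKM, above both wild-type libraries at 7.32 and 9.33, and replicate 2 had 4.65. The deleted part of the gene is not given, so this check says only that the 1 library went against its label, and the changes of the knockout to and from day 2 are given with and without it. The markers of lymphoid spleen were present throughout, with B cell markers summing to between 419 and 899 FPKM per library.

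The 9 genes fell into 2 patterns. Alas1 was high on day 1 and back near its starting level by day 2, while Alas2 and the other 7 genes reached their highest FPKM on day 5 in both genotypes. On day 5, 8 of 9 genes had risen from day 0 in wild type and 8 of 9 in the knockout, against 21.5% and 22.8% of all genes tested. The median log2 change of the 9 was 2.27 in wild type and 2.69 in the knockout, where the median over all genes tested was -0.01 and -0.03. The comparisons of days 1, 2 and 5 with day 0 share their day 0 libraries within a genotype, so they are not independent of each other.

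**Figure D1:**
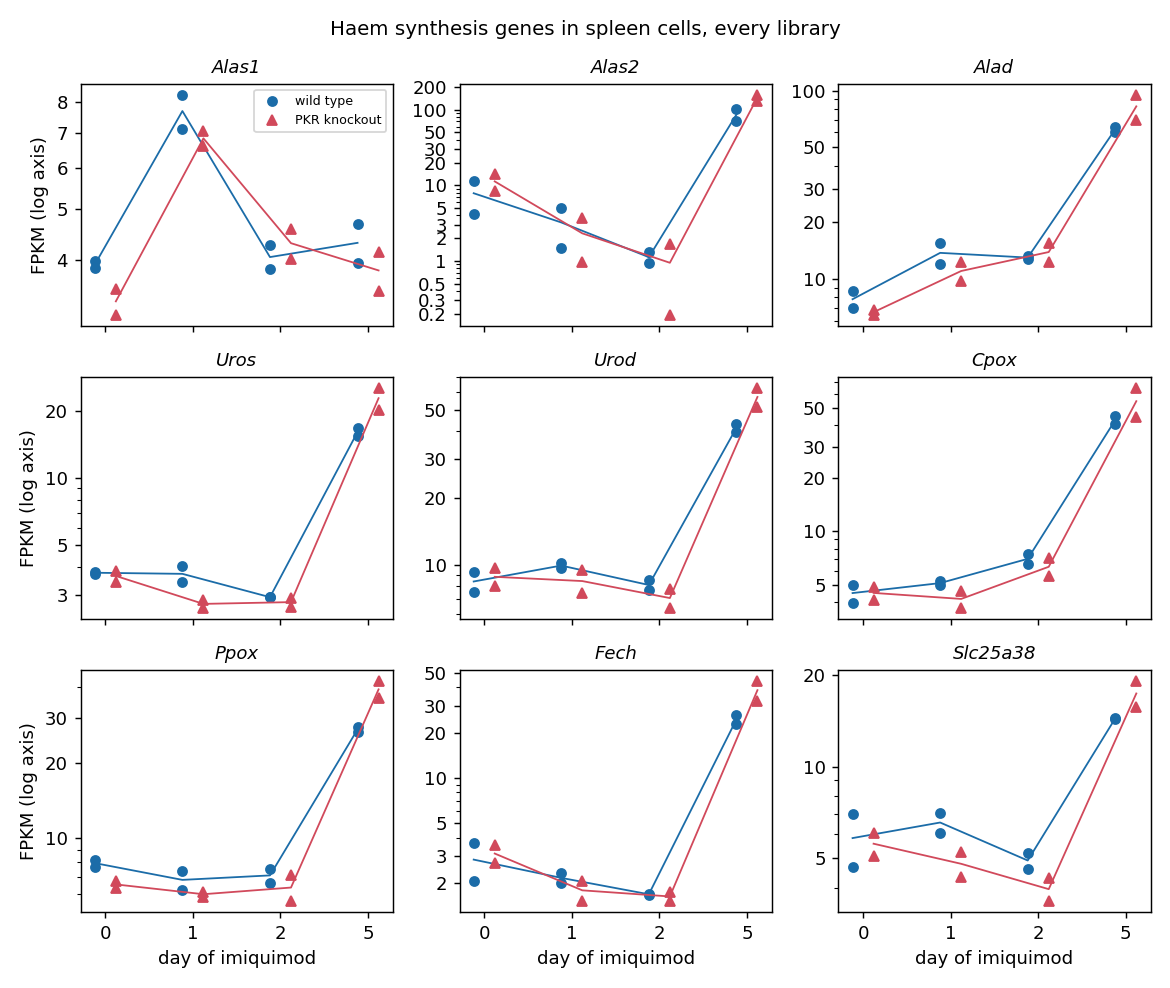
FPKM (log axis, own range in each panel) of the 9 genes by day of imiquimod (days evenly spaced, not to scale), with 1 point for each of the 16 libraries and a line through the mean of the 2 libraries of a group; wild type in blue circles, PKR knockout in red triangles. Alas1 peaks on day 1, between 6.60 and 8.26 FPKM, while the other 8 genes peak on day 5.

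Alas1 encodes the housekeeping form of the first, rate-limiting enzyme. In wild type its libraries were at 3.87 and 3.98 FPKM (day 0), 8.26 and 7.12 (day 1), 3.84 and 4.27 (day 2), and 3.95 and 4.68 (day 5). Knockout libraries read 3.53 and 3.15, 6.60 and 7.05, 4.59 and 4.03, and 3.50 and 4.15 on the same days. All 4 day 1 libraries lay above the other 12. Alas1 rose on day 1 by a log2 difference of 0.67 (SE 0.135, edgeR adjusted p = 6.14e-04) in wild type and 0.89 (SE 0.138, edgeR adjusted p = 4.95e-05) in the knockout. On day 2 the difference from day 0 was 0.08 in wild type (SE 0.137, edgeR adjusted p = 0.672) and 0.33 in the knockout (SE 0.139, edgeR adjusted p = 0.0533). The knockout value lies just above the threshold of 0.05: 18 of the 26 alternatives called it, and 8 did not. On day 5 it was 0.11 in wild type (SE 0.137, edgeR adjusted p = 0.569) and 0.19 in the knockout (SE 0.139, edgeR adjusted p = 0.293), and the libraries of day 5 and day 0 overlapped in both genotypes.

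Alas2 encodes the erythroid form of the same enzyme. In wild type its libraries were at 4.15 and 11.6 FPKM (day 0), 4.95 and 1.502 (day 1), 0.939 and 1.30 (day 2), and 102 and 70.3 (day 5). The knockout libraries were at 8.33 and 14.2 (day 0), 0.981 and 3.65 (day 1), 0.193 and 1.70 (day 2), and 158 and 132 (day 5). All 4 day 5 libraries lay above the other 12, and all 4 day 2 libraries lay below those of day 0. The 0.193 FPKM belongs to the library labelled knockout day 2 replicate 1 and rests on 14 fragments.

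Alas2 rose on day 5 by a log2 difference of 3.39 (SE 0.905, edgeR adjusted p = 0.0173) in wild type and 3.68 (SE 0.915, edgeR adjusted p = 0.0109) in the knockout. Its SE was larger than that of any other member. The wild-type call was lost in 3 of 26 alternatives, with only the groups compared, without day 0 replicate 1 and without day 5 replicate 1, where the adjusted p reached 0.0925. The knockout call was lost in 1, without its day 0 replicate 1, at an adjusted p of 0.0693. Against day 2 the rise on day 5 was 6.19 (SE 1.08, edgeR adjusted p = 0.00271) in wild type and 7.22 (SE 1.13, edgeR adjusted p = 0.00120) in the knockout, and no alternative lost either call. The size of the knockout rise depended on the library labelled day 2 replicate 1: it was 6.40 without that library (edgeR adjusted p = 0.00898) and 9.62 without the other day 2 library, where leaving out 1 library gave 5.86 to 6.48 in wild type. The difference on day 1 was -1.64 in wild type (edgeR adjusted p = 0.168) and -2.43 in the knockout (edgeR adjusted p = 0.0667). On day 2 Alas2 fell by 2.79 in wild type (SE 0.985, edgeR adjusted p = 0.0474) and fell by 3.54 in the knockout (SE 1.02, edgeR adjusted p = 0.0193). The wild-type call was lost in 13 of 26 alternatives, and the knockout call was lost in 3, among them the fit without the library labelled knockout day 2 replicate 1, where the value was -2.72 (edgeR adjusted p = 0.0950). Without replicate 2 of that group it was -5.87.

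The log2 ratio of Alas1 to Alas2 FPKM was -1.26 ± 0.868 (SD, n = 4, both genotypes) on day 0, 1.67 ± 0.980 on day 1, 2.39 ± 1.49 on day 2 and -4.77 ± 0.667 on day 5. Alas1 was thus below Alas2 in all 4 libraries of day 0 and of day 5, and above it in all 8 libraries of days 1 and 2. These orders are those of the 1 transcript kept per gene. In wild-type day 0 replicate 1 the pair was close, at 3.87 against 4.15 FPKM. Other protein-coding Alas1 transcripts had wild-type day 0 means from 3.50 to 8.22 FPKM, so the order in that library depends on the transcript. Against day 0 the ratio differed by 2.93 on day 1, 3.65 on day 2 and -3.51 on day 5. Each had p = 0.0286 in a two-sided exact permutation test, the smallest that 70 splits of 4 against 4 can give, and 0.0381 after Benjamini-Hochberg adjustment over the 4 ratio tests. With splits made within genotype, of which there are 36, each exact permutation p was 0.0556 and 0.0741 after adjustment, so that form of the test cannot pass 0.05. Without knockout day 1 replicate 1 the adjusted p were 0.0762 on day 1, 0.0571 on day 2 and 0.0571 on day 5, above the threshold. Without the library labelled knockout day 2 replicate 1 the day 2 difference was 2.93. Genotype was the fourth of these tests: the knockout ratio differed from wild type by -0.11 over all days (exact permutation p = 0.847, labels exchanged within days). The mean ratios of wild type and knockout were -0.82 and -1.705 on day 0, and 1.49 and 1.85 on day 1. They were 1.87 and 2.91 on day 2, and -4.30 and -5.25 on day 5. The direction thus changed with the day, and a test of the average cannot show differences on single days.

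As a share of the summed FPKM of the kept transcripts of both genes, Alas2 made up 51.7% and 74.4% in the wild-type day 0 libraries. In those of the knockout it was 70.2% and 81.9%. On day 2 its share was 19.6% and 23.4% in wild type and 4.03% and 29.6% in the knockout. On day 5 it was 96.3% and 93.8% in wild type and 97.8% and 97.0% in the knockout. The summed FPKM of the pair was lowest on day 2, between 4.78 and 5.73, and highest on day 5, between 75.0 and 162.

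**Figure D2:**
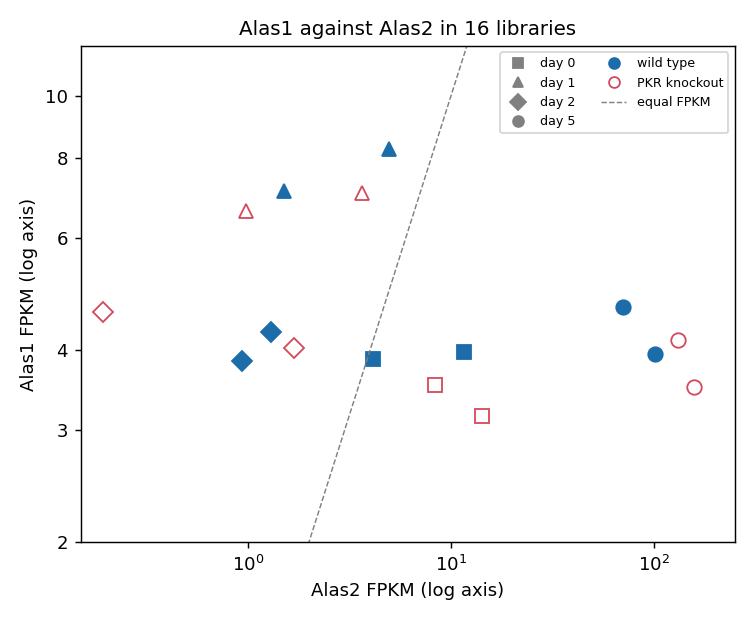
Alas1 FPKM against Alas2 FPKM (both log axes) in the 16 libraries; shape gives the day, filled blue is wild type, open red is PKR knockout, and the dashed line marks equal FPKM. The day 1 libraries sit highest, the day 5 libraries lie far to the right between 70.3 and 158 FPKM of Alas2, and day 1 and day 2 lie left of the dashed line.

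Promoter sequences are shown for Alas2 and Cpox, the members with letters of the GATA motif in this window and the largest rises of wild type on day 5, and for Alas1, which did not share their pattern. GATA1, the master transcription factor of red cell precursors, binds GATA motifs, KLF1 binds CACC boxes, and NRF1, a regulator of mitochondrial genes, binds a motif whose core is GCGCATGC. Windows of 300 bases from RefSeq (GRCm38.p6, 250 before to 50 after a gene's start) matched 8 of the 9 genes, and Fech had none. Both strands were searched for AGATAA and AGATAG, both also with T as the first letter, for CCACCC, and for GCGCATGC. In the lines below capitals mark these letters or their reverse complement, and each sequence is on the strand of its gene. The Alas2 stretch is chrX:150547167-150547374 (plus strand), the Cpox stretch chr16:58669958-58670207 (plus strand) and the Alas1 site chr9:106247906-106247935 (minus strand). The stretches of Alas2 and Cpox end before the first start of any of their deposited transcripts, and the Alas1 site is cut to 30 bases.
Alas2: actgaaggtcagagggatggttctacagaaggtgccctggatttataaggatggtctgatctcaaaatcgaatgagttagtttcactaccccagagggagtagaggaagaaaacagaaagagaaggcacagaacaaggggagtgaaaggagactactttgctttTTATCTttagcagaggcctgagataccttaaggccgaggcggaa
Cpox: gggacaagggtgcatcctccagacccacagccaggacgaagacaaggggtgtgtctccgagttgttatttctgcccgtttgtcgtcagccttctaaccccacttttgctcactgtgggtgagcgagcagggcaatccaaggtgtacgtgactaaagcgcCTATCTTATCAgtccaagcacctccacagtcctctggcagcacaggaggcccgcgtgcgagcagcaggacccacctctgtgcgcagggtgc
Alas1: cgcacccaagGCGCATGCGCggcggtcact

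The GATA letters of Alas2 begin 86 bases before its RefSeq start, and 3 CCACCC matches follow at 40, 35 and 30 bases before that start, beyond the end of the printed stretch. Those 3 lie inside the kept Alas2 transcript, which starts 42 bases before the RefSeq start. Before its RefSeq start Cpox has 2 GATA matches that share 1 base, at 91 and 86 bases from it, and 1 more match lies after that start, outside the printed stretch. The kept Cpox transcript starts 84 bases after the RefSeq start, beyond that match. In Alas1, 2 overlapping GCGCATGC matches begin 195 and 193 bases before the start. The other 5 windows, those of Alad, Uros, Urod, Ppox and Slc25a38, held none of the letters searched. Among 32851 RefSeq windows of this length, 29.8% hold GATA letters, 31.5% CCACCC and 2.71% GCGCATGC, so GATA or CCACCC letters alone do not set a promoter apart. A match is a description of the letters, not of binding.

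Slc25a38 carries glycine, the substrate of both synthases, into the mitochondrion. Its FPKM in wild type was 6.98 and 4.66 (day 0), 7.05 and 6.04 (day 1), 5.21 and 4.61 (day 2), and 14.5 and 14.4 (day 5). Knockout libraries read 6.06 and 5.09, 4.33 and 5.25, 3.61 and 4.30, and 19.1 and 15.7. Both genotypes were highest on day 5, with no overlap with day 0. The rise on day 5 was 1.30 (SE 0.166, edgeR adjusted p = 6.81e-06) in wild type and 1.63 (SE 0.168, edgeR adjusted p = 3.31e-07) in the knockout, the smallest of the 8 genes that rose. In the knockout it fell by 0.52 on day 2 (SE 0.173, edgeR adjusted p = 0.0176), a call lost in 7 of 26 alternatives.

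Alad encodes the enzyme that joins pairs of aminolevulinate molecules to porphobilinogen. Its FPKM in wild type was 7.02 and 8.58 (day 0), 15.5 and 12.02 (day 1), 13.2 and 12.7 (day 2), and 60.6 and 64.1 (day 5). For the knockout the pairs were 6.44 and 6.87, 9.78 and 12.3, 15.5 and 12.3, and 95.1 and 69.7. Alad was the only member that rose on every treated day in both genotypes. It rose on day 1 by 0.51 (SE 0.166, edgeR adjusted p = 0.0189) in wild type and 0.58 (SE 0.170, edgeR adjusted p = 0.0102) in the knockout, each a call that leaving out 1 library could end, on day 2 by 0.75 and 1.03, and on day 5 by 2.96 (SE 0.173, edgeR adjusted p = 9.26e-10) and 3.62 (SE 0.179, edgeR adjusted p = 5.35e-11). Without day 0 replicate 1 or day 1 replicate 1 the wild-type day 1 call was lost, and without day 0 replicate 1 or day 1 replicate 2 the knockout call was lost, with adjusted p up to 0.181 and 0.104.

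Uros forms the ring of uroporphyrinogen. In wild type it was at 3.73 and 3.79 FPKM (day 0), 3.42 and 4.02 (day 1), 2.92 and 2.93 (day 2), and 15.5 and 16.7 (day 5). The knockout values were 3.43 and 3.85, 2.84 and 2.61, 2.90 and 2.65, and 25.4 and 20.3. The day 5 libraries lay far above all others. Uros rose on day 5 by 2.07 (SE 0.145, edgeR adjusted p = 4.48e-09) in wild type and 2.64 (SE 0.148, edgeR adjusted p = 1.61e-10) in the knockout. In the knockout it fell by 0.56 on day 1 (SE 0.151, edgeR adjusted p = 0.00624) and by 0.42 on day 2 (SE 0.152, edgeR adjusted p = 0.0277), the latter lost in 15 of 26 alternatives. The day 1 call was lost without knockout day 0 replicate 2 or day 1 replicate 2.

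Urod, which removes carboxyl groups from that ring, was at 7.50 and 9.27 FPKM in wild type (day 0), 10.2 and 9.63 (day 1), 8.52 and 7.65 (day 2), and 43.2 and 39.6 (day 5). The knockout pairs were 7.99 and 9.61, 7.44 and 9.41, 7.75 and 6.36, and 62.8 and 51.4. It passed the test on day 5 only among the treated days, in both genotypes. The rise was 2.27 (SE 0.157, edgeR adjusted p = 3.96e-09) in wild type and 2.69 (SE 0.160, edgeR adjusted p = 3.30e-10) in the knockout.

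Cpox and Ppox carry out the 2 oxidations that yield protoporphyrin, in the intermembrane space and at the inner membrane of the mitochondrion. Cpox was at 3.96 and 5.00 FPKM in wild type (day 0), 5.22 and 4.97 (day 1), 7.48 and 6.51 (day 2), and 40.6 and 44.8 (day 5). Knockout libraries read 4.10 and 4.87, 3.68 and 4.62, 7.06 and 5.56, and 64.9 and 44.2. Cpox was already up on day 2, by 0.66 (SE 0.179, edgeR adjusted p = 0.00615) in wild type and 0.46 (SE 0.180, edgeR adjusted p = 0.0443) in the knockout, the knockout call being lost in 6 of 26 alternatives. The library labelled knockout day 2 replicate 1 was among those whose removal ended it. On day 5 its rise was 3.21 (SE 0.188, edgeR adjusted p = 2.07e-09) and 3.60 (SE 0.192, edgeR adjusted p = 3.36e-10).

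Ppox was at 8.21 and 7.68 FPKM in wild type (day 0), 7.40 and 6.22 (day 1), 7.55 and 6.64 (day 2), and 27.7 and 26.5 (day 5). For the knockout the pairs were 6.34 and 6.74, 5.83 and 6.12, 5.60 and 7.10, and 42.3 and 36.1. It was lower in wild type on day 1 and higher in both genotypes on day 5. The day 1 fall in wild type was by 0.52 (SE 0.141, edgeR adjusted p = 0.00578), and it was lost in 3 alternatives, both limma fits on FPKM and the fit without wild-type day 1 replicate 2. The day 5 rise was 1.75 (SE 0.141, edgeR adjusted p = 2.65e-08) and 2.58 (SE 0.146, edgeR adjusted p = 1.77e-10).

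Fech encodes ferrochelatase, which inserts iron into protoporphyrin to finish haem. It was at 2.04 and 3.66 FPKM in wild type (day 0), 2.31 and 2.01 (day 1), 1.67 and 1.68 (day 2), and 26.3 and 22.7 (day 5). The knockout values were 2.70 and 3.57, 1.52 and 2.04, 1.74 and 1.51, and 44.2 and 32.6. Its levels dipped before they rose, but the wild-type libraries of day 1 overlapped those of day 0. Fech fell by 0.73 on day 1 (edgeR adjusted p = 0.0472) and by 0.76 on day 2 (edgeR adjusted p = 0.0416) in wild type, calls lost in 18 and 16 of 26 alternatives. In the knockout it fell by 0.96 on day 1 (SE 0.275, edgeR adjusted p = 0.0156) and 0.98 on day 2 (SE 0.278, edgeR adjusted p = 0.0118), lost in 2 and 3. On day 5 it rose by 3.05 (SE 0.283, edgeR adjusted p = 6.72e-06) in wild type and 3.61 (SE 0.290, edgeR adjusted p = 1.40e-06) in the knockout.

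**Figure D3:**
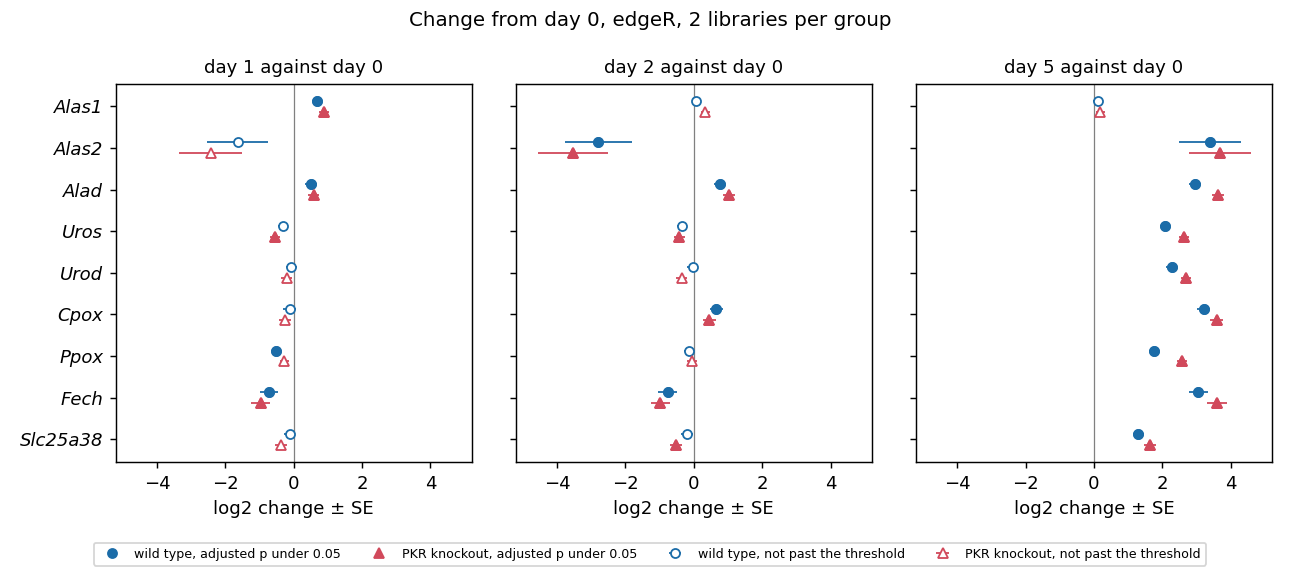
Log2 change from day 0 with its standard error for the 9 genes on days 1, 2 and 5 (edgeR, 2 libraries per group); filled symbols have an adjusted p under 0.05, open symbols do not. On day 5 all genes but Alas1 lie at 1.30 or more, while on days 1 and 2 changes go both ways and Alas2 has the widest errors.

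Counted over the 9 genes, day 1 in wild type had 2 risen (Alas1, Alad) and 2 fallen (Ppox, Fech), against 21.9% and 22.7% of all genes tested, and day 2 had 2 risen (Alad, Cpox) and 2 fallen (Alas2, Fech), against 22.3% and 23%. In the knockout day 1 had 2 risen (Alas1, Alad) and 2 fallen (Uros, Fech), against 20.7% and 20.9%. Day 2 in the knockout had 2 risen (Alad, Cpox) and 4 fallen (Alas2, Uros, Fech, Slc25a38), against 24.1% and 25.6%. Without the library labelled knockout day 2 replicate 1 that count of 6 became 1, Alad at 0.90 (edgeR adjusted p = 0.00132). The others of the 6 were then at -1.04 for Fech (edgeR adjusted p = 0.0592), -0.44 for Uros (0.0734), 0.32 for Cpox (0.254) and -0.36 for Slc25a38 (0.162), beside the Alas2 value given above. Alas1 was at 0.28 (0.194). The shares on days 1 and 2 are thus near the background, apart from the 4 falls in the knockout on day 2, none of which remained without that library. From day 2 to day 5 all but Alas1 rose in both genotypes, 8 of 9 against 16.2% of all genes in wild type and 18.4% in the knockout, and every leave-one-out fit kept a count of 8. Without the library labelled knockout day 2 replicate 1 the knockout rises ran from 1.99 for Slc25a38 to 6.40 for Alas2.

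The order of levels per length changed with it. On day 0 in wild type Urod, Ppox, Alas2 and Alad were at the top, with means from 8.38 to 7.80 FPKM and overlapping libraries, and Fech was lowest at 2.85 ± 1.15 (SD, n = 2). On days 1 and 2 Alad led in both genotypes, and on day 2 Alas2 was the lowest of the 9 in both, at 1.12 ± 0.257 in wild type and 0.944 ± 1.06 in the knockout, where its libraries overlapped those of Fech. On day 5 Alas2 led at 86.1 ± 22.4 FPKM in wild type and 145 ± 18.4 in the knockout, followed by Alad at 62.3 ± 2.51 and 82.4 ± 17.96. Cpox and Urod came next and overlapped in both genotypes, and Alas1 was lowest at 4.32 ± 0.518 and 3.83 ± 0.457.

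Markers of red cell precursors were high on day 5, as were all these genes but Alas1. Without the day 5 libraries, Pearson correlations with the mean log2 level of the 15 markers were 0.915 for Alas2 and 0.82 for Fech. They were between 0.335 and 0.574 for Uros, Urod, Ppox and Slc25a38. For Cpox (-0.181), Alas1 (-0.408) and Alad (-0.526) they were negative. The summed FPKM of 15 such markers was 19.5 and 65.0 in wild type (day 0), 26.1 and 9.45 (day 1), 14.9 and 15.6 (day 2), and 754 and 679 (day 5). The knockout pairs were 33.9 and 59.6, 8.53 and 22.2, 5.15 and 15.99, and 1290 and 973. The wild-type day 0 libraries that differed in Alas2, and the library labelled knockout day 2 replicate 1 with the lowest Alas2, differed in the same direction in this sum. On day 5 all 15 markers rose in both genotypes, with median log2 changes of 4.07 and 4.47, and none was at 0 in any group. They include Sptb, a spectrin of the red cell membrane skeleton, at a log2 rise of 4.34 in wild type, Ank1 at 4.34 and the transferrin receptor gene Tfr2 at 4.34. All 4 adult globin genes tested rose too, by 3.09 to 3.45 in wild type and 3.43 to 3.86 in the knockout. In bulk RNA, more cells of a type and more RNA per cell cannot be told apart, and the part of precursor number in the rise of the haem genes was not tested.

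Set against the mean log2 FPKM of those 15 markers, the members did not move alike. Alas2 minus that mean was 1.97 ± 0.0829 (SD, n = 2) in wild type on day 0, 1.67 ± 0.262 on day 1, 0.30 ± 0.281 on day 2 and 1.37 ± 0.377 on day 5. Knockout libraries read 2.41 ± 0.0416, 1.41 ± 0.307, 0.27 ± 0.776 and 1.62 ± 0.0988. Alas2 thus stayed within a narrower span of the markers than Alas1, whose difference from the mean went from 1.17 ± 1.09 on day 0 to -2.90 ± 0.172 on day 5 in wild type. This was not particular to Alas2, since the span of Fech was similar. In wild type Fech lay between 1.33 ± 0.773 on day 1 and -0.42 ± 0.149 on day 5. In the knockout it lay between 1.51 ± 1.21 on day 2 and -0.31 ± 0.0268 on day 5. Every member, Alas2 among them, went from above the mean on day 0 to nearer it or below it on day 5. In wild type Alad went from 2.13 ± 0.911 to 0.92 ± 0.0603 and Ppox from 2.165 ± 1.18 to -0.27 ± 0.0438. These differences are descriptions with no test.

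Other cell types changed over the same days. On day 5 in wild type all 8 T cell markers and 7 of 8 B cell markers fell, 6 of 12 macrophage and monocyte markers rose and 1 fell, and 4 of 8 megakaryocyte markers rose. Of 8 plasma cell markers 6 rose and 1 fell, and no neutrophil marker was called. Of all genes tested 21.5% rose and 18.1% fell on that day. All 10 proliferation genes rose on every treated day in both genotypes, where between 20.7% and 24.1% of all genes tested rose. On day 1, when Alas1 was highest, the macrophage and monocyte markers went both ways: 3 of 12 rose and 6 fell in wild type, with a median log2 change of -0.68, and 5 rose and 4 fell in the knockout, with a median of -0.38. Of all genes tested 21.9% rose and 22.7% fell on day 1 in wild type, and 20.7% and 20.9% in the knockout. Plasma cell markers rose in 5 of 8 in each genotype and none fell, with medians of 1.01 and 0.89. Of 8 neutrophil markers 1 rose and 3 fell in wild type, and 2 rose and none fell in the knockout. T cell markers fell in 5 of 8 and in 8 of 8, and B cell markers in 3 and 5 of 8. The part of any of these cell types in the Alas1 level was not tested.

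Over the 16 libraries the log2 levels of Alas2 and the 7 genes other than Alas1 followed each other. The 28 pairs had Pearson correlations between 0.70 and 0.988 with a median of 0.946, and without the 4 day 5 libraries the median was 0.282, with a range from -0.682 to 0.826. Most of these pairs were thus much less alike without the day 5 libraries. Alas1 correlated with those 8 genes at -0.342 to -0.094, and at -0.322 to 0.569 without the day 5 libraries. Of 10423 genes with a mean of at least 1 FPKM, those most like Alas1 were Lgals9 (r = 0.962), Lgals3bp (0.956), Oas1a (0.944), Ccdc86 (0.941) and Chd1l (0.940). Oas1a, an interferon-induced oligoadenylate synthetase, had mean FPKM of 3.79, 26.9, 5.82 and 4.22 on days 0, 1, 2 and 5 in wild type. Those most like Alas2 were Hba-a1 (0.999), Hbb-bs (0.999), Hbb-bt (0.999), Slc4a1 (0.998) and Hba-a2 (0.997), that is 4 globin genes and the anion exchanger of the red cell membrane. Correlations over libraries that share days and depth are descriptions.

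The pathway's surroundings were read from lists of related genes. Of 19 genes for iron supply and iron-sulphur cluster assembly, 12 rose on day 5 in wild type and 14 in the knockout and none fell, where 21.5% and 22.8% of all genes tested rose on that day and 18.1% and 22.1% fell. Beside Tfr2 they include Steap3, the ferrireductase of red cell precursors, at a log2 rise of 3.64 and 4.08, Tfrc, the main transferrin receptor, at 2.73 and 2.99, and Slc25a37, the mitoferrin that brings iron into the mitochondrion, at 2.08 and 2.82. The list's median was 0.65 in wild type and 0.74 in the knockout. Of 10 tested genes for porphyrin and haem transport, 8 rose in each genotype and none fell, with medians of 1.86 and 2.09. Abcg2, an exporter that also carries porphyrins, rose by 3.24 and 3.48, Abcb10, an inner mitochondrial membrane transporter, by 2.93 and 3.57, Abcb6 by 2.93 and 3.73, and the haem-binding protein gene Hebp1 by 3.31 and 3.93.

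The lists for the supply of substrates and the use of haem had smaller median changes on day 5 than the lists above. Of 9 tested genes for glycine and succinyl-CoA supply, 6 rose in wild type and 4 in the knockout and none fell, with medians of 0.46 and 0.22. Both counts lie above the 21.5% and 22.8% of all genes tested that rose, and those differences were not tested. Slc6a9, a plasma membrane glycine transporter, rose by 3.88 and 4.77, while Shmt2, which makes glycine from serine in the mitochondrion, rose by 0.95 in each genotype and was far higher on day 1, at 55.6 and 64.3 FPKM against 10.1 and 8.64 on day 0. Dlst rose by 0.76 and 0.85, and Dld rose by 0.57 in wild type and was at 0.19 in the knockout, without passing the test. Of 9 genes for the control and turnover of the synthases, 4 rose and 2 fell in wild type, and 3 rose and 3 fell in the knockout, with medians of 0.24 and 0.19. For this list on control and turnover most of the counts are near the shares of all genes given above. The 4 rises in wild type lie above the 21.5% of all genes, and that difference was not tested. Ppargc1a, a coactivator known to induce Alas1 in liver, fell by 1.34 and 1.08, Foxo1, a transcription factor that acts with it, fell by 0.91 and 0.71, and Lonp1, a mitochondrial protease that degrades the ALAS1 protein, rose by 0.77 and 0.84. Fam210b, a mitochondrial membrane protein gene, rose by 1.83 and 2.72.

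Of 9 tested genes for haem breakdown and haem sensing, 3 rose and 2 fell on day 5 in each genotype, with medians of 0.20 and 0.15. These counts are near the shares of all genes that rose and fell on day 5. Blvrb, a biliverdin reductase abundant in red cells, rose by 2.76 and 3.23, Blvra by 1.05 and 0.67, and Eif2ak1, the haem-regulated kinase of red cell precursors, by 1.32 and 1.86. Cd163, the macrophage receptor for haemoglobin bound to haptoglobin, fell by 1.25 and 0.77, and Nr1d2, a haem-binding nuclear receptor, fell by 0.37 and 0.81. Of 11 tested genes for haem-containing enzymes and haem addition, 4 rose in wild type and 3 in the knockout, and none fell, with medians of 0.27 and 0.11. The 3 that rose in the knockout are near the 22.8% of all genes. The 4 in wild type lie further above the 21.5%, and that difference was not tested. Cycs, the gene of cytochrome c, rose by 0.71 in wild type and was at 0.10 in the knockout (edgeR adjusted p = 0.607), and Cyc1 rose by 0.54 and 0.65. Cybb and Cox15 rose in wild type, by 0.38 and 0.36, and were at 0.04 and 0.13 in the knockout. A call in 1 genotype alone is not a difference between genotypes, and for these genes none passed the test of the day 5 difference itself.

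The last question was whether the knockout changed these levels. By edgeR 0 of the 9 genes passed the test between genotypes on day 0, 1, 2 or 5, where 0.0213%, 0.187%, 0% and 0.00534% of all genes did. None passed in the test of whether the change from day 0 differed between genotypes on day 1, 2 or 5, where 0.171%, 0% and 0% of all genes did. At an unadjusted p under 0.05 the counts were 0 of 9 on days 0, 1 and 2, where 5.92%, 9.17% and 4.85% of all genes passed, and 6 of 9 on day 5, where 6.28% did. For the differences in change they were 0, 0 and 3 of 9 against 13.1%, 4.06% and 7.91%. DESeq2 called 2 of 9 on day 5, Ppox and Uros, against 0.384% of all genes, and 1 in the day 5 change, Ppox, against 0.197%. With no filter on low counts edgeR called 3 on day 5, Ppox, Urod and Uros, against 0.626%, and Ppox in the day 5 change, against 0.451%. By limma on log2(FPKM + 0.1) none of the 9 and 0% of all genes were called in either.

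On day 5, 8 of 9 genes had a higher fitted level in the knockout, and 7 of 9 had both knockout libraries above both of wild type in FPKM, against 13.3% of all genes tested. The exceptions were Alas1, whose libraries overlapped, and Cpox, with 44.2 in the lower knockout library and 44.8 in the higher of wild type. The share of all genes with a higher fitted level was not counted, and their median difference was -0.02. The 9 genes were read in the same 2 libraries per group, so these counts and those above are not made of independent genes. Ppox was 0.60 higher (SE 0.136, edgeR adjusted p = 0.266), Uros 0.57 (SE 0.136, edgeR adjusted p = 0.289), Urod 0.53 (SE 0.148, edgeR adjusted p = 0.382), Alad 0.47 (SE 0.158, edgeR adjusted p = 0.562), Fech 0.71 (SE 0.261, edgeR adjusted p = 0.651) and Cpox 0.42 (SE 0.171, edgeR adjusted p = 0.687). Alas2 was 0.82 higher with an SE of 0.822 (edgeR adjusted p = 0.962), Slc25a38 0.34 higher, and Alas1 differed by -0.11 (SE 0.139, edgeR adjusted p = 0.969). The erythroid markers lay in the same direction, with a median of 0.62 over 15 genes of which none passed the test, and the 4 globin genes had a median of 1.04. Their part in the genotype values was not tested.

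**Figure D4:**
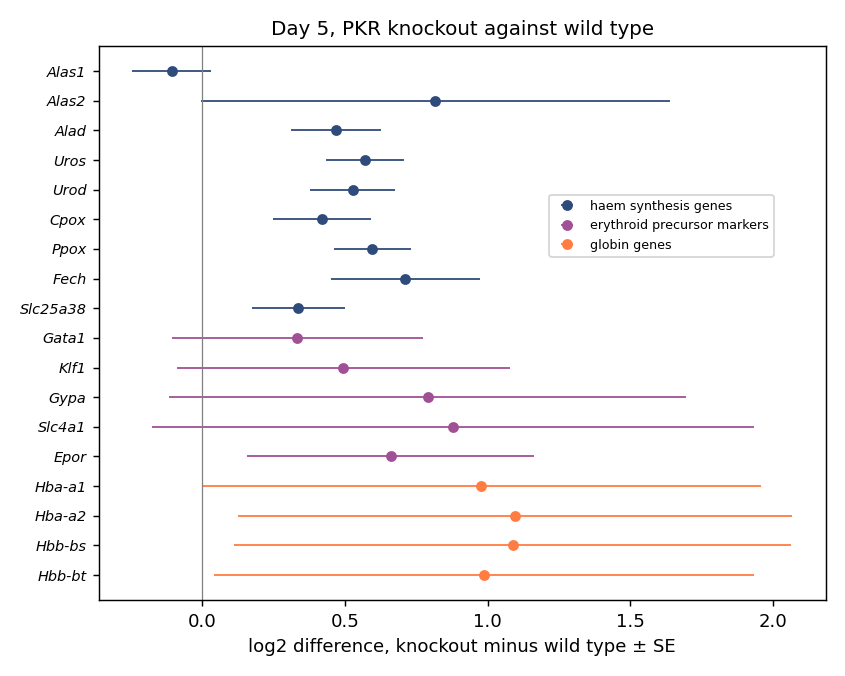
Log2 difference between PKR knockout and wild type on day 5 with its standard error (edgeR, 2 libraries per group) for the 9 haem synthesis genes, 5 familiar markers among the 15 of erythroid precursors and 4 globin genes. All points but Alas1 at -0.11 lie above 0, and no gene shown has an adjusted p under 0.05.

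The Alas1 and Alas2 values of the knockout against wild type were small beside their errors on the earlier days. For Alas1 the difference was -0.19 on day 0 (SE 0.138), 0.03 on day 1 (SE 0.134) and 0.07 on day 2 (SE 0.138). For Alas2 it was 0.53 (SE 0.847), -0.26 (SE 0.928) and -0.22 (SE 1.12). The fitted Alas1 value on day 1 is above 0 while both knockout libraries are below both of wild type in FPKM, and FPKM does not carry the scaling given above. The difference was -0.17 by limma on log2(FPKM + 0.1). The differences between genotypes in the day 1, 2 and 5 changes were 0.22, 0.26 and 0.08 for Alas1 and -0.79, -0.75 and 0.29 for Alas2, each with an adjusted p of at least 0.657 by edgeR.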

How the data were processed

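Total RNA depleted of ribosomal RNA was read from 16 stranded libraries, 2 per group, with TruSeq kits on an Illumina NovaSeq, per the labels' protocols. Per the submitters' processing notes, bcl2fastq 2.17.1.14, Trimmomatic, HISAT2 and TopHat were used with mouse build mm10; no source used here names the counting tool. The authors deposited, for each library and transcript, a fragment count, the FPM signal (fragments scaled by library total) and FPKM, per the file headers. The transcript lengths are in the same files.

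For each symbol, the transcript with the highest mean count was kept, among protein-coding ones of GENCODE M21 where there were any. Transcripts of a gene share fragments, so levels are those of 1 transcript. Genes passing filterByExpr (18744) were fitted with edgeR 4.0.16 (R 4.3.3, TMM scaling, robust quasi-likelihood, 1 mean per group over all 16 libraries). There were 15 comparisons, each adjusted by Benjamini-Hochberg over all genes. Alternatives were DESeq2 1.42.0, edgeR with the size factors of DESeq2, limma 3.58.1 on log2(FPKM + 0.1) and log2(FPKM + 1), no filter, a FPKM filter, summed transcripts, the transcript chosen among all types, only the groups compared, a replicate block and leaving out each library. The fit was also run on simulated counts with 1 spread for all genes, which does not cover genes as variable as Alas2. Its outcome is not reported here. P-values measure the spread between pools of 2 spleens.

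The members and gene lists were chosen with earlier results of these data known. All 9 members are named; from each list up to 4 genes with the largest called change on day 5 in wild type and any called in the other direction are named, and the 5 genes most correlated with Alas1 and with Alas2. Genes of the lists that are not reported here still count in the totals of their lists.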

Additional observations from a re-analysis of the deposited data

Results flagged for a closer look

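For several genes both knockout libraries lay below both wild-type libraries on an earlier day and above both on day 5, in log2 counts scaled by library size. They are named because they did so, and the share of all genes with such a turn was not counted. On day 5 alone 13.3% of all genes tested had both knockout libraries above both of wild type in FPKM. The turns are therefore not shown to be a trait of these genes. For Ppox the knockout minus wild-type difference was -0.23 on day 0 and 0.59 on day 5, a shift of 0.83, whose own test by edgeR gave an adjusted p of 0.408. For Uros it was -0.24 on day 1 and -0.09 on day 2 against 0.56 on day 5, shifts of 0.80 and 0.65. For Slc25a38 it was -0.25 on day 1 and -0.33 on day 2 against 0.33 on day 5, shifts of 0.58 and 0.66. For Urod it was -0.21 on day 2 and 0.52 on day 5, a shift of 0.74. The shifts from day 1 or day 2 to day 5 were not tested, and those from day 2 rest in part on the library labelled knockout day 2 replicate 1. No explanation was tested.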

How the results depend on the processing

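Of 50 tests in which a member passed the threshold, 35 kept the call in all 26 alternatives and 0 changed sign. Both counts of 8 genes against day 2 were kept by every leave-one-out fit. By limma on log2(FPKM + 0.1) and log2(FPKM + 1) the 4 members called on day 1 in wild type became 2 and 2, with the replicate block the 4 on day 2 in wild type became 2, and with only the groups compared the 6 on day 2 in the knockout became 3. Between genotypes on day 5, DESeq2 called 2 and the fit with no filter 3, where edgeR called 0, and in the day 5 change each called 1. Leaving out 1 library gave 2 to 4 members on day 1 in wild type, 2 to 4 on day 2 in wild type, 2 to 5 on day 1 in the knockout and 1 to 7 on day 2 in the knockout, and 7 to 8 against day 0 on day 5 in each genotype. The cause was not tested.

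Equal replicate numbers did not pair the libraries: 28 correlations of their deviations ran from -0.152 to 0.162, with a median of 0.00147. With the 36 splits made within genotype, the Alas1 to Alas2 differences of 2.93, 3.65 and -3.51 have an exact permutation p of 0.0556, the smallest that they allow, so they cannot pass 0.05. Leaving out 1 library, the ratio differed by 2.57 to 3.32 on day 1, 2.93 to 4.04 on day 2 and -3.81 to -3.12 on day 5, and without knockout day 1 replicate 1 the adjusted p of all 3 passed 0.05 (0.0762, 0.0571 and 0.0571). The difference between genotypes in that ratio ran from -0.53 to 0.31.

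Values not past the threshold changed sign in some fits. Alas1 between genotypes on day 1 was -0.00727 with no filter, -0.167 and -0.149 by limma on log2(FPKM + 0.1) and log2(FPKM + 1), and -0.0777 to 0.119 when 1 library was left out. Leaving out 1 library turned Alas1 in wild type from day 2 to day 5 (-0.0732 to 0.124), Alas1 between genotypes on day 2 (-0.00368 to 0.186) and day 5 (-0.24 to 0.0278), and its difference in the day 5 change (-0.0401 to 0.228). For Alas2 it turned the genotype difference on day 0 (-0.0568 to 1.53), day 1 (-1.46 to 0.795) and day 2 (-2.62 to 0.603), and its differences in the change on day 1 (-1.99 to 0.267), day 2 (-3.13 to 0.0779) and day 5 (-0.707 to 0.876). The SE of the Alas2 genotype difference was 0.847 on day 0, 0.928 on day 1, 1.12 on day 2 and 0.822 on day 5. Counts of Alas2 were lowest on day 2, with 14 fragments in 1 library, and their part in its SE was not tested.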
